A study of Mus musculus with 16 samples.

Results

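The 5 mouse genes described here, Pde4d, Magi1, Tiam1, D730003K21Rik and Etl4, had more accessible chromatin regions nearest to their transcription start sites than any other gene in embryonic stem (ES) cells. They were chosen by that count: each region of a merged ATAC-seq list was given to the gene whose transcription start site (TSS) in the GENCODE M21 annotation lay closest to the region centre, and the 5 genes with the most regions were taken. Together they held 200 of 81132 regions (0.247%), and they were 5 of 30947 genes with at least 1 region. Because the count selected the genes, it is given as a description, without a test.

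ATAC-seq inserts sequencing adapters into open chromatin with the Tn5 transposase. The 12 ATAC libraries came from SBROS mouse ES cells sorted in G1 phase, with 3 biological replicates in each of 4 groups. SBROS cells derive from SBR, a CGR8 line with reporters for Sox1 and Brachyury, and carry a SNAP-tag on both endogenous alleles of SOX2 and a HALO-tag on 1 allele of OCT4, so that sorting read the product of a single OCT4 allele. Cells were kept with LIF, CHIR99021, PD184352 and serum, and the groups differed only in their sort window: SHOH was high for SOX2 and OCT4, SHOL high for SOX2 and low for OCT4, SLOH low for SOX2 and high for OCT4, and SLOL low for both. The 12 libraries were pooled into 1 list of chromosome, start and end, with no read count, score or library of origin, so the read depth behind a region is unknown from it, no replicate error can be attached, and no value below separates the groups. A position without a region is 1 where no peak was called or kept, whatever its accessibility.

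Marker genes of several lineages had open promoters in the list, as most protein-coding genes did. Promoters were taken as the 1000 bp before a TSS and the 100 bp after it, and a region overlapped the promoter of 9 of 10 naive ES cell markers, among them Pou5f1, Sox2, Esrrb and Klf4. Nanog was the 1 without, and its nearest region lay 4218 bp from the TSS. The counts for other lineages were 4 of 6 fibroblast markers (all but Col3a1 and Postn), 4 of 4 primitive endoderm markers and 3 of 4 trophoblast markers (all but Hand1). Over all 21938 protein-coding genes the share was 66.5%, which lay inside the counting interval of each of these small lists, so they are not set apart from other genes. Accessibility at a promoter is not expression, and the part of other cell types in the list was not tested.

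Long genes often use several promoters, and an alternative start can give a protein with a different beginning, a shorter product, the same protein or a noncoding transcript. Open regions in introns are commonly enhancers, which can act on a promoter far away in the same gene or on another gene altogether. The closest TSS is therefore a rule of position and does not state which gene a region controls. Pde4d encodes a phosphodiesterase that degrades cAMP and is known for many isoforms from alternative promoters. Magi1 encodes a membrane-associated scaffold at cell junctions, and Tiam1 an exchange factor that activates the GTPase RAC1. Etl4, also named Skt or sickle tail, was found as an enhancer trap locus and is needed for intervertebral disc development. D730003K21Rik is annotated as a long intergenic noncoding RNA.

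Start sites of a gene at most 500 bp apart were treated as 1 cluster, numbered in the direction of transcription, and a cluster was occupied when a region overlapped it or lay within 200 bp. The sequences below show how different the open promoters of 1 gene can be: for each gene the occupied cluster nearest the 5′ end and the occupied cluster farthest from it are given, as far as their regions reached upstream of the first TSS and up to 250 bp. Capitals mark CG dinucleotides, the substrate of DNA methylation and the hallmark of CpG island promoters. Each sequence is written 5′ to 3′ on the strand of the gene and ends at the base before the TSS. The bases were read from the RefSeq sequence of GRCm38.p6, which has the coordinates of mm10. The region at the farthest occupied cluster of Etl4 lay downstream of the TSS, and D730003K21Rik had no occupied cluster, so neither has an entry there.
Pde4d cluster 4 (chr13:109116095-109116235, plus strand): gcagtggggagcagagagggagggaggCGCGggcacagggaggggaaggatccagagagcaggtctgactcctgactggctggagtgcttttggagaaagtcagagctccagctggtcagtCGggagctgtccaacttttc
Pde4d cluster 12 (chr13:109922806-109922910, plus strand): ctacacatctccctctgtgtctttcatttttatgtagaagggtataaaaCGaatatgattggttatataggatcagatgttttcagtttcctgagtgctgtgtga
Magi1 cluster 1 (chr6:94283918-94284167, minus strand): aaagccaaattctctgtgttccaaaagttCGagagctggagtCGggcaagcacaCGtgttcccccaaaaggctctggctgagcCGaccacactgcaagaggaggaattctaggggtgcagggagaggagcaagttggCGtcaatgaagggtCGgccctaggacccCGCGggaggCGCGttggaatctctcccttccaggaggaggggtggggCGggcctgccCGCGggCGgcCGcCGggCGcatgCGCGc
Magi1 cluster 3 (chr6:93913691-93913874, minus strand): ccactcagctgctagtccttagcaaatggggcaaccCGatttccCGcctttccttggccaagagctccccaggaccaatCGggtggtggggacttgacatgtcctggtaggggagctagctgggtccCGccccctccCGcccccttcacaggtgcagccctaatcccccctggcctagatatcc
Tiam1 cluster 1 (chr16:90143770-90144019, minus strand): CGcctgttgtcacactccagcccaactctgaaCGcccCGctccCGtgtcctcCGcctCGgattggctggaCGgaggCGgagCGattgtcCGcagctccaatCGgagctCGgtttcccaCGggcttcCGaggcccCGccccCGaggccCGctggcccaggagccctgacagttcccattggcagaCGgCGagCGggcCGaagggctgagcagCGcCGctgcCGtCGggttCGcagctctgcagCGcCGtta
Tiam1 cluster 10 (chr16:89818353-89818516, minus strand): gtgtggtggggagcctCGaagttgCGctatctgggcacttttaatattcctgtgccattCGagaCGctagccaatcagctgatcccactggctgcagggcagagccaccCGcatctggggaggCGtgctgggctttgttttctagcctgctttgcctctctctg
Etl4 cluster 1 (chr2:19909530-19909779, plus strand): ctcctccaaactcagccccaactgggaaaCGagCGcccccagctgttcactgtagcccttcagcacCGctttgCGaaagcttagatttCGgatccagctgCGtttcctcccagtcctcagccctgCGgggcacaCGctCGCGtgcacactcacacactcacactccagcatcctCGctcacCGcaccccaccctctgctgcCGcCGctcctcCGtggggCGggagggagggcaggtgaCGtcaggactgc

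The sequences at the 5′ clusters of Tiam1, Magi1 and Etl4 had 28, 19 and 17 CG dinucleotides in 250 bp. At internal clusters the Tiam1 sequence at cluster 10 had 6 in 164 bp and the Magi1 sequence at cluster 3 had 5 in 184 bp. The most upstream open promoter of Pde4d, cluster 4, had 3 CG dinucleotides in 141 bp at a GC content of 61.0%. Its cluster 12 had 1 in 105 bp at a GC content of 36.2%. These stretches are of unequal length and leave out the sequence after the TSS, so they do not rank the promoters. Over the whole region the observed to expected CpG ratio was 0.589 at Pde4d cluster 4, between 0.552 at Etl4 cluster 1 and 0.769 at Tiam1 cluster 1, and it was 0.872 at Magi1 cluster 1. Internal clusters were not poorer throughout, since the ratio was 0.833 at Pde4d cluster 11 and 0.622 at Etl4 cluster 5. It was 0.342 and 0.363 in the pair of regions at Magi1 cluster 3. The pair at Tiam1 cluster 10 differed, with 0.442 in the region over the TSS and 0.738 in the other.

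A different kind of element is shown for D730003K21Rik, whose regions lay almost all outside genes. It is a region of 436 bp, number 19 of its 33 from the 5′ side, at chr9:116450762-116451197, and it held the octamer bound by OCT4 on both strands near its centre. It was picked after the motif matches had been seen. Capitals mark the 2 octamers (ATGCAAAT, read as ATTTGCAT on the other strand) and a KLF match (GGGTGTGGC, read as GCCACACCC) that adjoins the octamer farther from the region start.
D730003K21Rik octamer region (chr9:116450948-116451071, plus strand): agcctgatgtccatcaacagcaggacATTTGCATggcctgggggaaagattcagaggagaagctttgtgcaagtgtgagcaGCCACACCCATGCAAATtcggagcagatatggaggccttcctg

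Pde4d was the nearest gene of 64 regions, Magi1 of 37, Tiam1 of 36, D730003K21Rik of 33 and Etl4 of 30. Pde4d stood far above the others, while the order from Magi1 downwards moved in small steps. Just outside were Tns3, a tensin of focal adhesions, Robo1, an axon guidance receptor, and Cntnap2, a neurexin-family adhesion protein, with 29 regions each. Fry and Rybp, the latter a component of Polycomb repressive complex 1, followed with 28 each, so the line between Etl4 and the genes below it was 1 region wide. The median gene with a region had 2.

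Counting by gene body gives a different order. Pde4d held 60 regions within its body and ranked 8 of all genes, Magi1 ranked 12 with 47, Etl4 13 with 44 and Tiam1 35 with 32. D730003K21Rik, with a body of 12.18 kb, held 1. At the head of that order stood Gm20388, a gene model with 289 regions, and Fgfr2, a fibroblast growth factor receptor, with 142. With 1 TSS per gene, its 5′ end, only D730003K21Rik was among the first 5, and with TSSs of protein-coding genes alone only Pde4d was. The choice of these 5 genes therefore holds for the closest TSS of any annotated transcript and not for these other rules.

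The length of sequence nearest to a gene's TSSs, here called its territory, is the sequence from which the regions counted for it could come. Pde4d had a territory of 1398 kb, rank 23 of 55368 genes, and the territories of the others were 474.2 kb for Magi1, 372.6 kb for Etl4, 356.9 kb for Tiam1 and 303.9 kb for D730003K21Rik. Across the 30947 genes with a region, territory and count had a Spearman rho of 0.451, where neighbouring genes share borders and are not independent. D730003K21Rik and Tiam1 had the shortest territories and, since density is the count divided by territory and their counts were close to those of Magi1 and Etl4, the densest ones. Per Mb of territory D730003K21Rik had 109 regions, Tiam1 101, Etl4 80.5, Magi1 78.0 and Pde4d 45.8. Relative to their whole chromosomes, gaps in the sequence included, these were 3.63 times the density of chromosome 16 for Tiam1, 3.26 times that of chromosome 9 for D730003K21Rik, 2.36 times that of chromosome 2 for Etl4, 1.77 times that of chromosome 6 for Magi1 and 1.55 times that of chromosome 13 for Pde4d. Magi1 lay on the densest of these chromosomes, with 44.1 regions per Mb against 29.8 over the genome.

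**Figure D1:**
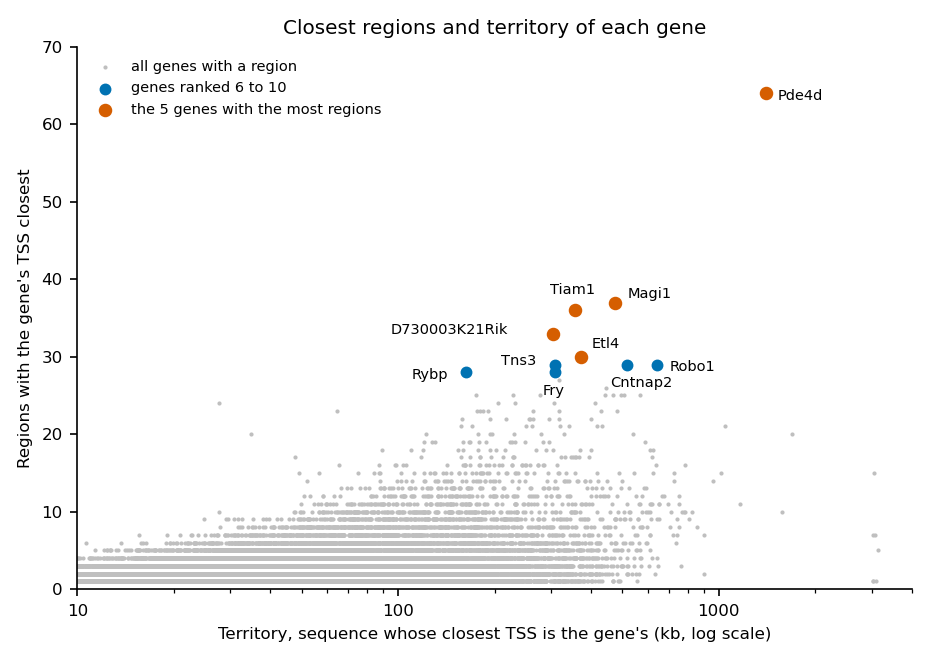
Regions nearest to each gene's TSSs against the length of the gene's territory in kb (log scale); each point is a gene with at least 1 region and a territory of 10 kb or more. The 5 chosen genes are in orange and the genes ranked 6 to 10 in blue, and Pde4d stands apart with 64 regions over 1398 kb.

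Genes with territories like those of the 5 are given for scale, since the choice by count means that no other gene could have more regions. Dmd, the dystrophin gene, had 10 regions over 1571 kb, Ptprd 11 over 1162 kb and Rbfox1, a splicing regulator, 20 over 1694 kb, all within 1.25 times the territory of Pde4d. Among 139 genes with a territory of at least 500 kb, the median density was 11.4 per Mb, and Pde4d ranked 3 of them. Within 1.25 times the territory of Magi1 there were 250 genes with a median of 5 regions, and around Tiam1, Etl4 and D730003K21Rik there were 602, 528 and 888 genes with medians of 4, 4 and 3. The 3 nearest matches of each were of mixed kinds, among them Ptchd4 with 9 regions for Magi1, Fggy with 7 for Tiam1, Cadps2 with 11 for Etl4, and Dnah7b with 5 for D730003K21Rik. The other protein-coding matches were Kif2b with 8 regions for Magi1 and Gm7173 with 1 for D730003K21Rik, which had the territory closest to that gene's. The remaining places went to the pseudogenes Gm20693 (6 regions, Magi1), Gm44075 (2, Tiam1), Gm13464 (4, Etl4) and Gm5216 (1, Etl4), the small nucleolar RNA gene Gm22034 (4, Tiam1) and the long noncoding RNA gene Gm32357 (5, D730003K21Rik).

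Pde4d lies on the plus strand at chr13:108449948-109953461, and its 1504 kb carry 20 annotated transcripts with 20 different TSSs. Its regions were concentrated toward the 3′ end. When the body was divided into 4 equal parts from the 5′ end, they held 1, 6, 16 and 32 of its own regions, and the median position was 78.2% of the way along the gene. The annotated 5′ end had no region near it: the nearest region to cluster 1 was 58015 bp away and belonged to Depdc1b, the gene upstream. No region of Pde4d lay in the first 300 kb, where a single region was nearest to Rps3a3, a ribosomal protein pseudogene inside the gene. Several long gaps between its own regions broke up the rest. The longest were 191 kb at chr13:108882214-109073295, which held no region at all, and 146 kb at chr13:109261314-109407516, which held 2 regions nearest to the microRNA gene Mir582. Next came 91.1 kb at chr13:109117204-109208316, again without any region.

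In the Pde4d transcript of greatest span, intron 3 is 708 kb long and contained 35 of the regions. Intron 7 contained 10 over 131 kb, and 10 of the 16 introns, most of them short ones near the 3′ end, contained none. The densest 50 kb held 9 regions from chr13:109599645 to chr13:109647970 and surrounded cluster 8. Beyond the 3′ end lay 9 further regions nearest to Pde4d, 7 intergenic and 2 within introns of Rab3c, a small GTPase gene whose own TSS is farther off. They included the widest of all 200 regions, 1895 bp at chr13:110018430-110020324, which lay 84065 bp from the closest Pde4d TSS and was not at any annotated promoter.

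Of 15 start site clusters, Pde4d had 5 with a region, clusters 4, 5, 8, 11 and 12, at 666.3, 810.7, 1183, 1453 and 1473 kb from the 5′ end. The first 3 clusters, at 0, 204.2 and 410.2 kb, had none. The occupied clusters thus all lay 666.3 kb or more into the gene. Of these, clusters 5, 8 and 12 have no transcript tagged basic, and cluster 12 has none that is protein-coding. Their regions differed in composition: cluster 11 had the widest promoter region, 1162 bp with a GC content of 68.5% and a CpG ratio of 0.833, while cluster 8 had 685 bp at 46.3% and a ratio of 0.164. Cluster 12 had a region of 353 bp. A region of 1133 bp at chr13:109684805-109685937 ended 219 bp before cluster 9 and so fell just outside the 200 bp limit, though its centre was within the promoter as defined. RefSeq model transcripts, looked at after these values were known, add 6 start sites for Pde4d, none within 500 bp of a GENCODE TSS. One of them, at position 109685112, lies inside that same region, and another, at 109440901, inside a region of 413 bp that GENCODE places in an intron. The single curated RefSeq start, cluster 2, had its nearest region 68136 bp away.

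Magi1 runs on the minus strand at chr6:93675455-94283917, 608.5 kb with 11 transcripts. In contrast to Pde4d, the regions nearest to its own TSSs lay more toward the 5′ end. The 4 equal parts of the body held 13, 10, 9 and 4 of them, and the median position was 40.4%. Counting every region within the body, also those nearest to other genes, gave 13, 10, 14 and 10, without a lean to either end. Intron 1 of the transcript of greatest span, 340 kb, contained 28 of the 37, intron 2 contained 4, and 20 of 24 introns contained none. All but 1 of the regions lay inside the body, and none was downstream. The densest stretch, 8 regions within 50 kb, lay inside intron 1 from chr6:94136676 to chr6:94183996 and ended about 100 kb from the 5′ promoter. Between it and the next regions toward the 5′ end lay 67.2 kb without a region.

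Magi1 had 3 of 4 clusters occupied, the highest share of the 5 genes. Cluster 2 starts 595 bp from the 5′ end and shares with cluster 1 a region of 1315 bp, the widest of the gene, with a GC content of 64.4%; a separate region of 600 bp lay 14 bp beyond cluster 2. Cluster 3, at 370.2 kb, starts transcripts within intron 2 and was opened by a pair of regions of 1053 and 418 bp. Only cluster 4, with 1 transcript that is not tagged basic, had none, and its nearest region was 22186 bp away. All 3 curated and all 9 model RefSeq starts of Magi1 fell within 200 bp of a region. The Magi1 body also held 11 regions nearest to other genes. Of these, 5 were nearest to the small nucleolar RNA gene Gm22840 and 1 to the small nuclear RNA gene Gm23035, both inside the gene, and 5 near its 3′ end were nearest to the pseudogene Gm7812 outside it. The 6 nearest to the small RNA genes lay in the longest gap between Magi1's own regions, 142 kb at chr6:93770354-93912244.

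Tiam1 is the shortest of the 4 protein-coding members, 356.7 kb on the minus strand at chr16:89787111-90143769 with 15 transcripts. Its regions were spread more evenly than those of Pde4d, with 3, 6, 10 and 12 in the 4 equal parts. They still leaned toward the 3′ end, with a median position of 67.2%. They fell in 8 of the 11 introns of the transcript of greatest span, and introns 2 and 10, of 110 and 67.1 kb, had 8 each. Tiam1 also had the most regions centred on exons, 5 of 36. Among 616 genes with a body of at least 300 kb, where the median was 1.74 regions per 100 kb, Tiam1 had 8.97 and ranked 10; Magi1 ranked 15 with 7.72, Etl4 50 with 4.88 and Pde4d 86 with 3.99. The longest gap of Tiam1, 89.2 kb at chr16:90030715-90119953 in introns 1 and 2, held 1 region nearest to the pseudogene Gm2805. Downstream of the gene lay 4 more regions, the farthest 76095 bp from a Tiam1 TSS and the widest of them 974 bp.

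The first cluster of Tiam1 had a region of 1075 bp with a GC content of 64.3%. Of the 13 clusters, 3 were occupied: cluster 1, cluster 5 at 182.9 kb with a region of 609 bp, and cluster 10 at 325.4 kb with regions of 244 and 233 bp. Cluster 10 starts a short protein-coding transcript near the 3′ end. The 10 unoccupied clusters included 7 whose transcripts are all noncoding, and their nearest regions lay between 1297 and 5825 bp away. The curated RefSeq starts of Tiam1 are at clusters 3, 5 and 10, of which the latter pair were open, while cluster 3 was 2076 bp from the nearest region.

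Etl4 covers 900.9 kb on the plus strand at chr2:19909780-20810713 with 20 transcripts. It began with an open promoter, followed by a long stretch with few regions. The region at its first TSS was 1291 bp wide, and after 1 more region came a gap of 375 kb, the longest in any of the 5 genes, in which 4 regions were nearest to pseudogenes and a small nuclear RNA gene. The 4 equal parts of the body held 2, 1, 12 and 14 of its own regions. Counting every region within the body gave 3, 4, 14 and 23, again with most toward the 3′ end. The densest 50 kb of all 5 genes was here, with 10 regions from chr2:20722708 to chr2:20770615 around clusters 9 and 10.

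Etl4 had 15 regions in its body that were nearest to other genes, the most of the 5, and 9 of them belonged to Gm13362, an antisense transcript. These 9 lay in a stretch of 88.6 kb that had no region nearest to Etl4 itself. Gm13328, a pseudogene, was nearest to 2, and Gm13335, Gm13361, Gm23970 and Gm27446 to 1 each. Of 12 start site clusters 5 were occupied: cluster 1 at the 5′ end, clusters 5 and 7 at 610 and 650.2 kb, and clusters 9 and 10 at 812.6 and 827.5 kb. The regions at clusters 9 and 10 lay 83 and 159 bp away, so with overlap required 3 of 12 were occupied. Thus Etl4 had regions at its 5′ promoter as well as at internal ones, unlike Pde4d. Cluster 5 had a region of 609 bp with a GC content of 59.9%, while the regions at clusters 7, 9 and 10 were 220, 303 and 283 bp wide and had GC contents from 43.9% to 49.5%. Of 3 curated starts in RefSeq, the 1 near cluster 5 lay inside a region, while those at clusters 2 and 4 lay 4762 and 1252 bp from the nearest region.

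D730003K21Rik differed from the other 4 in where its regions lay. The gene spans 12.18 kb on the plus strand at chr9:116327337-116339511 with 2 transcripts, and only 1 of its 33 regions was inside it. Upstream lay 5 regions and downstream 27, reaching 222258 bp from the closest TSS. Neither start site cluster was occupied, and the nearest region was 832 bp from the first TSS. All 32 regions outside the gene were intergenic, in the wide space between Tgfbr2, a TGF-beta receptor gene whose body is 152 kb to one side, and Rbms3, an RNA-binding protein gene 233 kb to the other. With protein-coding TSSs alone, 25 of the 33 regions became nearest to Tgfbr2, at a median of 214587 bp, and 8 to Rbms3, at a median of 288100 bp. The 33 regions thus formed an almost wholly intergenic stretch of 269.7 kb with the noncoding RNA near 1 end. The nearest annotated gene on the Tgfbr2 side is Gm31410, a gene model 77.6 kb away with 11 closest regions of its own. The closest-TSS rule divides the regions lying between them, so the stretch need not end where accessible regions end.

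**Figure D2:**
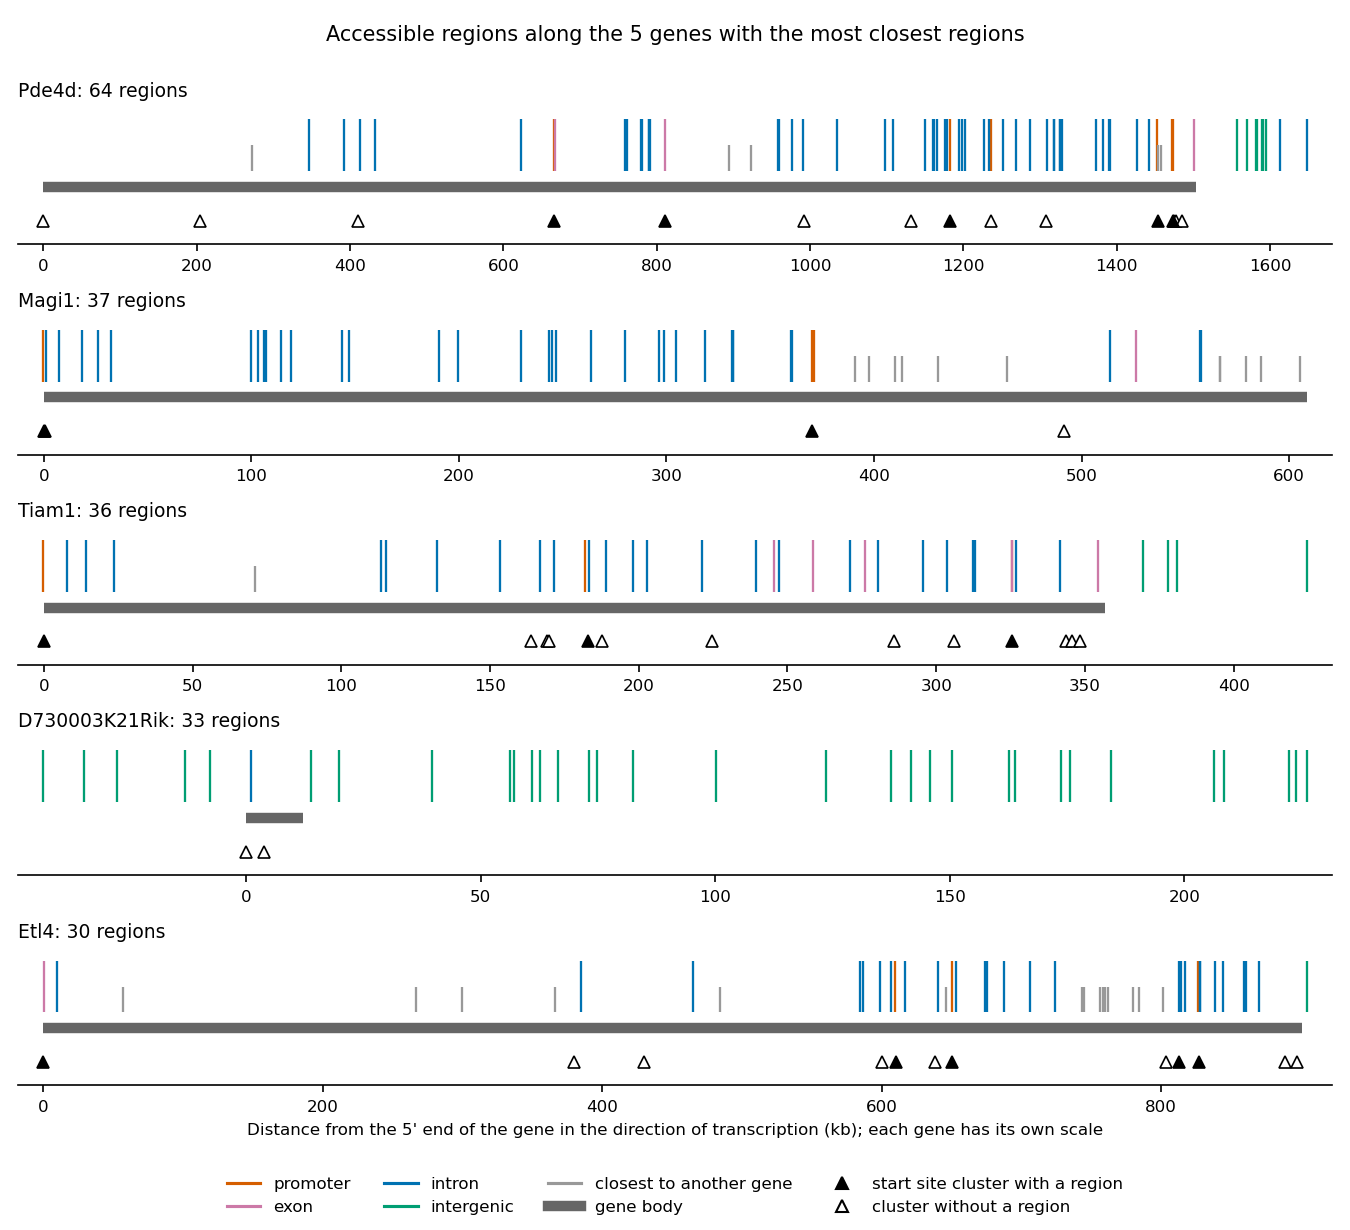
Accessible regions along the 5 genes as vertical lines placed by distance in kb from the 5′ end of the gene, coloured by class, with a scale of its own for each gene; short grey lines are regions in the body nearest to another gene, and triangles are start site clusters, filled when occupied. Regions of Pde4d, Etl4 and, less strongly, Tiam1 lie mostly toward the 3′ end of the body. Those nearest to Magi1's own TSSs lie more toward the 5′ end, and 27 of 33 regions of D730003K21Rik lie downstream of it.

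Spacing within the 5 genes was tighter than along their chromosomes at the median, which follows from choosing genes by count. The median gap between neighbouring regions of a gene was 6468 bp for D730003K21Rik, 6714 bp for Magi1, 8153 bp for Tiam1, 9146 bp for Etl4 and 10067 bp for Pde4d. This order depended on the narrow regions: without those under 200 bp D730003K21Rik had the longest median gap, 13086 bp, and the others had 9022 bp (Magi1) to 11923 bp (Tiam1). All consecutive regions of their chromosomes had median gaps from 9765.5 bp (chromosome 6) to 13440 bp (chromosome 13). The shape of the spacing differed between the genes, however. D730003K21Rik had the narrowest range of gaps, from 671 to 22929 bp, with none over 50 kb. Between the quartiles, however, its gaps ran from 3106 to 12878 bp and those of Tiam1 from 4456 to 13872 bp, a slightly tighter span. Pde4d had 12 of its 63 gaps under 1 kb and 5 over 50 kb, where 11.9% and 18.3% of all gaps on chromosome 13 were of these lengths. Magi1 had 7 of 36 gaps under 1 kb, the shortest 23 bp, and 2 over 50 kb, against 12.1% and 11.1% on chromosome 6. Tiam1 had 3 of 35 under 1 kb and 1 over 50 kb, where chromosome 16 had 11.0% and 18.1%. For D730003K21Rik 2 of 32 were under 1 kb, against 11.7% on chromosome 9. Etl4 had 2 gaps under 1 kb and 4 over 50 kb among 29, where the shares on chromosome 2 were 11.7% and 14.8%. The gaps of a gene and of a chromosome are not alike, because those of a gene skip the regions nearest to other genes and those of a chromosome skip none. Of the 4 long gaps of Etl4, 3 held such regions, namely 4, 1 and 9. Whether these shares differ from those of the chromosomes was not tested.

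**Figure D3:**
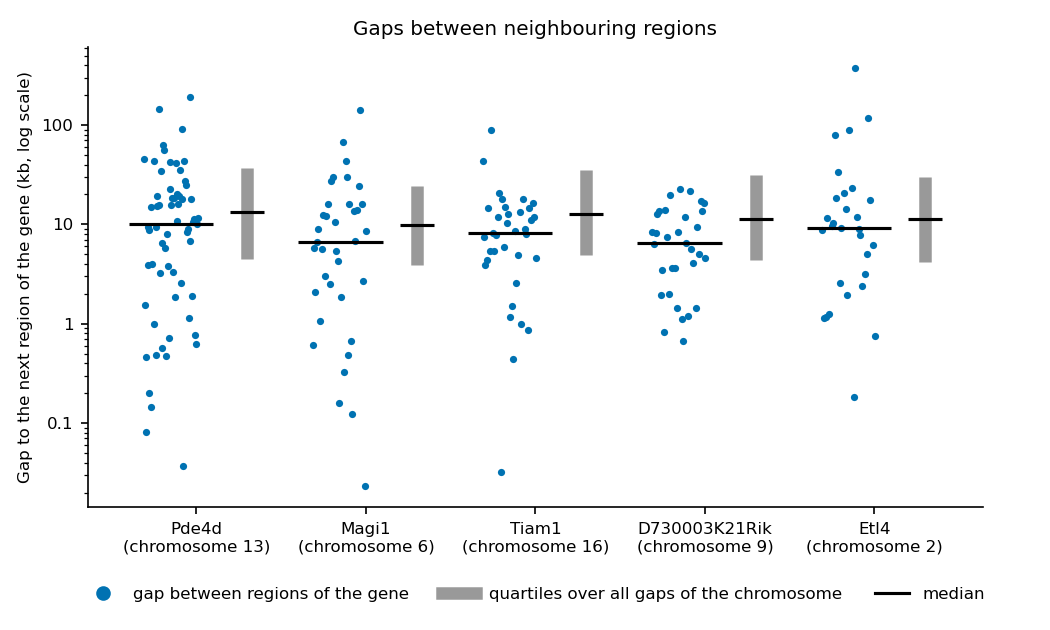
Gaps between neighbouring regions of each gene in kb (log scale), 1 point per gap with the median as a black line; grey bars span the quartiles of the gaps between all consecutive regions of the same chromosome. Medians lie between 6468 and 10067 bp, and the single widest gap is the 375 kb one of Etl4.

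The 200 regions were mainly intronic. Introns held 131 (65.5%, 95% Wilson interval 58.7 to 71.7, counting error only), intergenic sequence 44 (22%), promoters 15 (7.5%, interval 4.6 to 12.0) and exons 10 (5.0%). Over all regions the shares were 35.1% intronic, 35.2% intergenic, 21% promoter and 8.76% exonic. The intergenic regions came mostly from D730003K21Rik, with 32 of 44. Introns held 33 of 37 regions of Magi1, 25 of 30 of Etl4, 48 of 64 of Pde4d and 24 of 36 of Tiam1. Distance to the closest TSS ran accordingly: the median was 22442.5 bp against 6257 bp over all regions, and 67 of the 200 (33.5%) were more than 50 kb from a TSS against 9.07%. D730003K21Rik accounted for 24 of these, Magi1 for 22, Pde4d for 17 and Tiam1 and Etl4 for 2 each. Genes chosen for many closest regions have few TSSs per region. The low promoter share and the long distances therefore follow in part from the choice, and these differences were not tested.

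Width is given by gene and by class. The median width was 391 bp for Magi1, 351 bp for Pde4d, 344 bp for D730003K21Rik, 321 bp for Tiam1 and 320.5 bp for Etl4, against 355 bp over all regions. Promoter regions of the 5 genes had a median of 609 bp (600 bp over all promoters) and intronic ones 305 bp (307 bp over all introns). For these classes the medians were close to those of the list as a whole, although promoter medians ran from 244 bp in Tiam1 to 1053 bp in Magi1. The medians of 291 bp for 10 exonic and 382 bp for 44 intergenic regions had intervals of 190 to 1072 and 275 to 436 bp, which held the 383 and 321 bp of the whole list. At the extremes, 8 of the 200 (4.0%, interval 2.04 to 7.69) were wider than 1000 bp, near the 4.75% of all regions, and 7 of these lay at or next to a start site of Pde4d, Magi1, Tiam1 or Etl4; the other was the intergenic region downstream of Pde4d. D730003K21Rik had none over 639 bp. Narrow regions under 200 bp made up 49 of the 200 (24.5%, interval 19.1 to 30.9) against 19.8% of all, with shares from 20.0% in Etl4 to 30.3% in D730003K21Rik.

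**Figure D4:**
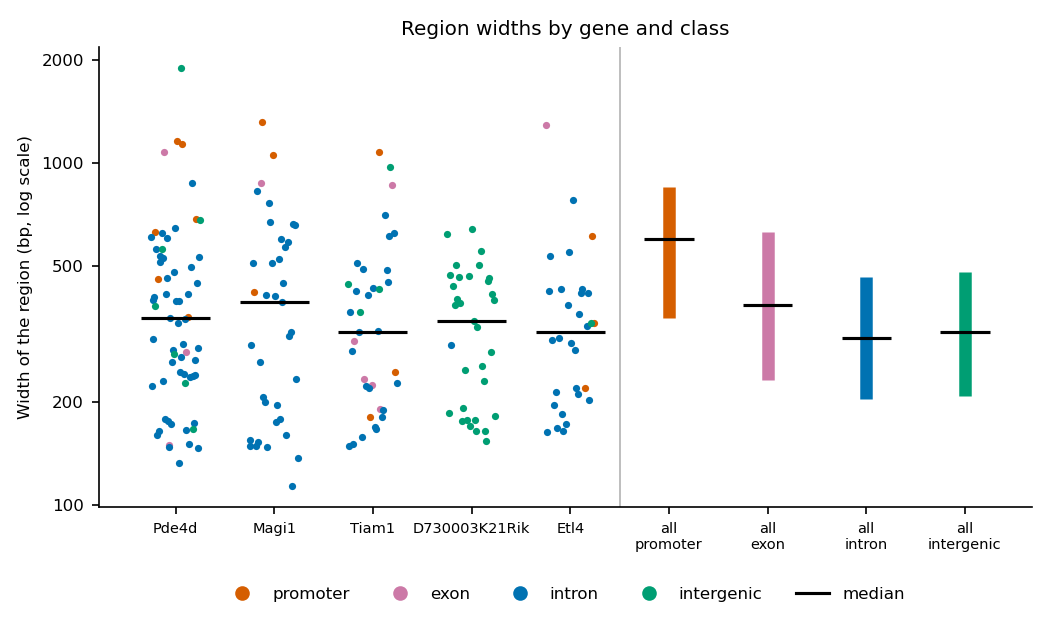
Width of each region in bp (log scale) by gene, with points coloured by class and the median as a black line; bars at the right span the quartiles of all regions of each class. Medians of the 5 genes lie between 320.5 and 391 bp, and the points above 1000 bp are mostly promoter or exon regions.

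The regions of the 5 genes were somewhat poorer in GC than the list as a whole. The median GC content was 48.7% over the 200 regions and 51.9% over all 81132. Tiam1 was the highest of the 5 at 52.4% and Magi1 the lowest at 46.5%. By class, the medians were 47.6% in intronic regions of the 5 genes and 50.1% in all intronic regions, and 56.0% against 60.6% in promoters. Repeats covered more than 50% of 13 of the 200 (6.5%, interval 3.84 to 10.8) and of 13.7% of all regions; D730003K21Rik had 4 of these 13, Pde4d and Tiam1 3 each, Magi1 2 and Etl4 1. A single Pde4d region of 165 bp in intron 5 consisted wholly of repeat sequence.

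Taken over the 5 genes, 16 of 46 start site clusters were occupied (34.8%). Over 13162 protein-coding genes with at least 2 clusters the share was 29.5% of 43770 clusters, and it was 19.4% in the 489 genes with at least 8. The first cluster was occupied in 66% and 79.3% of these genes, as it was in Magi1, Tiam1 and Etl4. Pde4d was among the genes without a region at the first cluster. That cluster has no transcript that is protein-coding or tagged basic, whereas the first clusters of Magi1, Tiam1 and Etl4 have transcripts of these kinds. Clusters 2 and 3 of Pde4d, however, each have a transcript that is both protein-coding and tagged basic, and neither was occupied. Occupancy is given by the annotation of the transcripts as well. Of 29 clusters with a protein-coding transcript 14 were occupied, but only 2 of 17 without, namely Pde4d cluster 12 and Etl4 cluster 7. Clusters with a transcript tagged basic were occupied in 12 of 24 cases and the others in 4 of 22. These pooled counts hide differences between the genes. In Pde4d the shares were 4 of 12 with a protein-coding transcript and 1 of 3 without, and 2 of 9 with a basic transcript and 3 of 6 without. Both clusters of D730003K21Rik have a basic transcript and neither was occupied. Over all protein-coding genes with at least 2 clusters, 44.9% of clusters with a protein-coding transcript and 8.15% of the others were occupied, and 53.9% and 9.75% with and without a basic one. Whether the 5 genes differ from these shares was not tested.

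Relatives of the 5 genes had lower counts, as the choice of the highest counts requires. The other 15 cAMP phosphodiesterase genes had a median of 6 regions and at most 13, in Pde11a. Pde4b, the paralogue of Pde4d with a territory of 595 kb, had 6 regions and 3 of 8 clusters occupied, and Pde4a had 7 in a territory of 53.19 kb. Among 10 scaffolds related to Magi1 the median was 7. Magi2, with a body of 1478 kb, reached 16, while Magi3 had 2 and Dlg1, a junction scaffold of the Discs large family, had 1. The other 9 RAC exchange factor genes had a median of 10, from 3 in Vav2 to 17 in Kalrn, and Tiam2, the paralogue of Tiam1, had 7. Srcin1, the paralogue of Etl4, had 3 regions. Per Mb of territory the order was not the same: 6 of the 15 phosphodiesterase genes were denser than Pde4d, with Pde1b at 151 and Pde4a at 132 regions per Mb, as were 2 of 10 scaffolds than Magi1 and 1 of 9 exchange factors, Vav1 at 153, than Tiam1. All 35 of these relatives had at least 1 region, and 32 had an occupied start site cluster. For scale, 30947 of all 55413 annotated genes, noncoding ones included, had a region. A region overlapped the promoter of 66.5% of protein-coding genes, which is not the same measure as an occupied cluster. Whether the relatives differ from other protein-coding genes was not tested.

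Short sequences matched by transcription factors of ES cells were counted in the 200 bp around each region centre, on both strands, with overlaps between different motifs allowed. The OCT octamer ATGCAAAT occurred in 5 of the 200 regions (2.5%, interval 1.07 to 5.72) and in 1.54% of all regions. The SOX letters CCATTGT or CCTTTGT occurred in 20 (10.0%, interval 6.57 to 14.9) against 8.99%, the KLF letters GGGTGTGGC or GGGCGTGGC in 6 (3.0%) against 3.46%, and the TEAD letters GGAATG in 28 (14.0%) against 12.3%. For these 4 the share over all regions lay inside the interval of the 5 genes. ESRRB, an orphan receptor of naive ES cells, had its letters TCAAGGTCA in 7 regions (3.5%, interval 1.71 to 7.05) against 1.34%. The CTCF core, AGGGGGC or AGGTGGC, was the only one less frequent beyond the interval, with 19 (9.5%, interval 6.17 to 14.4) against 14.8%. This was lost in other windows, with 19.5% (interval 14.6 to 25.5) against 25% in whole regions and 4.5% (interval 2.39 to 8.33) against 7.99% in 100 bp. In the 200 bp window it remained outside promoters, with 8.11% (interval 4.97 to 12.9) of 185 regions against 14.4%. For ESRRB the share over all regions stayed below the interval, with 2.0% (interval 0.78 to 5.03) against 0.668% in 100 bp and 5.0% (interval 2.74 to 8.96) against 2.24% in whole regions. These shares rest on 4 and 10 regions and on overlapping windows, so they are not separate evidence. With 7 motifs looked at and no correction made, the ESRRB difference was not tested. Matches describe letters only, and binding was not measured here.

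Motif counts by gene were small, and for every motif the counting intervals of the genes overlapped. The ESRRB letters occurred in 2 regions each of Pde4d, Magi1 and D730003K21Rik, in 1 of Etl4 and in none of Tiam1. The AP-1 letters TGANTCA occurred in 7 of 30 Etl4 regions (23.3%, interval 11.8 to 40.9) and in 4 of 33 D730003K21Rik regions (12.1%), against 3 of 64 in Pde4d. Over the 200 regions it was 16 (8.0%, interval 4.98 to 12.6), where the share of all regions was 5.78%. In Etl4, 4 of the 7 lay within the 50 kb that held the most of its regions, around clusters 9 and 10. The TEAD letters were most frequent in D730003K21Rik, in 8 of 33 regions (24.2%, interval 12.8 to 41.0). The SOX letters occurred in 6 of 36 Tiam1 and 5 of 30 Etl4 regions (16.7% each), 3 of 33 in D730003K21Rik, 4 of 64 in Pde4d and 2 of 37 in Magi1, with 8.99% over all regions. Differences between the genes were not tested. An octamer lay in the region at Etl4 cluster 7, an internal start, and the only region with octamers on both strands was the intergenic D730003K21Rik region printed above.

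**Figure D5:**
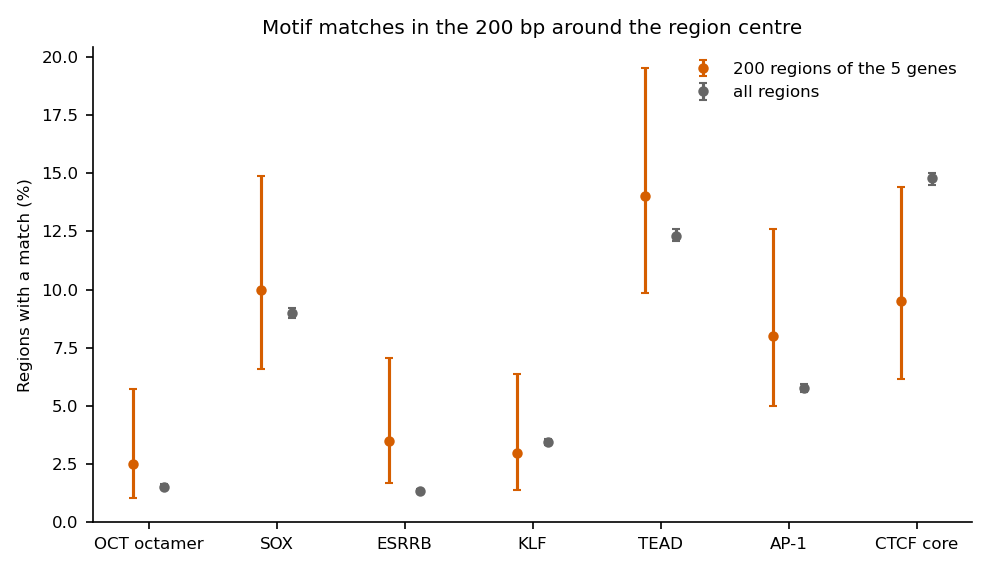
Share of regions (%) with a match to each of 7 motifs in the 200 bp around the region centre, for the 200 regions of the 5 genes and for all 81132 regions; bars are 95% Wilson intervals, which cover counting error only. ESRRB letters were in 3.5% against 1.34% of regions and the CTCF core in 9.5% against 14.8%.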

How the data were processed

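The authors deposited 1 merged list of ATAC-seq regions, given as genome positions in bp (start counted from 0, end), with no other value. Per their methods and the submitters' processing notes, reads were aligned to mm10 with STAR (2.5.3a), unique reads on chromosomes 1 to 19, X and Y were kept, Picard removed duplicates, and MACS2 (2.1.1.20160309) called peaks on whole fragments in each of 12 libraries, which were merged with BEDOPS; peaks overlapping input peaks were discarded, and no Tn5 shift is named. The 4 ChIP-seq samples were not used. The list gives no read counts, so the depth behind each region is unknown.

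Positions were handled from 1 with Python (3.11.15), numpy (2.4.6), pandas (2.3.3) and scipy (1.17.1), and plotted with matplotlib (3.10.9). Regions took the class at their centre, promoter before exon, intron and intergenic. No test was made. The functions were checked on made-up data. Members and lists were chosen with earlier results of these data known. Named genes were the members, the genes ranked 6 to 10, genes nearest to regions in member bodies, the 3 genes closest in territory to each member, and the family and marker lists. Genes ranked by gene body, neighbours, genes quoted as extremes of a list, the octamer sequence and RefSeq model starts were named after their values were seen.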

Additional observations from a re-analysis of the deposited data

How the results depend on the processing

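Of 130 alternative values for 37 results, 109 stayed within 1.5 times the main count or inside the main value's interval. Distances from region edges and joining regions at most 100 or 500 bp apart kept the same 5 genes on top. With 1 TSS per gene, its 5′ end, the closest regions fell to 2 for Pde4d, 15 for Magi1, 4 for Tiam1 and 2 for Etl4, since internal start sites no longer counted, and only D730003K21Rik, with 37, stayed among the highest. With TSSs of protein-coding genes only, Magi1 had 58 and Etl4 a density of 43.0 regions per Mb, as noncoding genes and pseudogenes no longer took regions or territory, and of the 5 genes only Pde4d, at rank 5, was among the first 5 (Magi1 rank 7, Etl4 24, Tiam1 27). With TSSs of basic transcripts Etl4 fell to rank 14 with 21 regions. By gene body D730003K21Rik had 1. Leaving out regions under 200 bp widened its median gap to 13086 bp and kept 3 of the 5 genes among the first 5, with Etl4 at rank 6 and D730003K21Rik at rank 8.

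Promoters of 2000 bp on both sides took in 8 regions of Tiam1 and 9 of Etl4. With overlap of region and cluster required, Etl4 had 3 of 12 start site clusters occupied and Magi1 2 of 4. Motif shares followed the window: in whole regions SOX rose to 18.0% (16% over all regions), TEAD to 25% (22.8%) and the CTCF core to 19.5% (25%), and in 100 bp SOX fell to 5.0% (4.67%), TEAD to 8.5% (6.49%), AP-1 to 4.5% (3.0%) and the CTCF core to 4.5% (7.99%), as fewer letters were searched. The share over all regions lay inside the interval in each of these. TSSs of curated RefSeq transcripts, an alternative chosen after seeing the data, gave Pde4d 5 closest regions and put none of the 5 genes among the first 5; of its 1 start site cluster 0 were occupied, with 3 of 3 in Magi1, 2 of 3 in Tiam1 and 1 of 3 in Etl4. D730003K21Rik has no curated transcript or coding TSS, so those settings gave it no value.

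No paired analysis was possible because the list gives nothing by library or replicate. A region may have been called in 1 library or in all 12, and neither depth nor a stricter peak threshold could be applied. The counts therefore describe the pooled list and not any of the 4 sorted groups.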
